A study of Mus musculus with 15 samples.

Results

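The nuclear genes for the subunits of respiratory complexes II to V, for cytochrome c and for a pair of copper chaperones of complex IV were followed in mouse liver RNA sequencing. Members were chosen by gene symbol alone, from the Sdh, Uqcr, Cox4 to Cox8 and Atp5 families together with Cyc1, Cycs, Sco1 and Sco2. The rule reads symbols and no measured value, though the set was proposed with earlier results of these data known. The symbols matched 49 of 18510 rows of the table. These were 4 genes of complex II, 9 of complex III, Cycs, 16 of complex IV, the copper chaperones and 17 of complex V. The respiratory genes that the mitochondrial genome encodes were not analysed here.

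All 15 libraries came from livers of wild-type mice, 5 in each of 3 groups. Ctrl mice received a control diet, Alc mice an alcohol diet, and Alc UA mice the alcohol diet together with UA, a name that the labels do not spell out. The labels name no strain, sex, age, length of feeding or alcohol dose. Values are FPKM, read fragments scaled by transcript length and by the fragments mapped in the library, as the authors deposited them.

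Complexes II to IV are enzymes of the inner mitochondrial membrane that pass electrons from succinate and ubiquinol to oxygen, and cytochrome c carries electrons from complex III to complex IV. Complexes III and IV move protons across the membrane as they do so, and complex V, the ATP synthase, uses the return of those protons to make ATP. Complex II is also an enzyme of the tricarboxylic acid cycle. In liver, ethanol is oxidised to acetaldehyde and acetate with the release of NADH, which the respiratory chain reoxidises, and loss of respiratory function is a known feature of the alcohol-fed rodent liver.

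Among the 49 genes, 46 reached 1 FPKM in 5 or more of the 15 libraries and were tested. The other 3 are isoforms known from striated muscle, lung or brown fat (Cox6a2, Cox4i2 and Cox8b), and none of them exceeded 0.68 FPKM in any library. Averaged over the 15 libraries, Cox4i1 had the highest level at 674 FPKM, followed by Atp5g3 at 619, Cox7c at 608 and Atp5b at 531. The lowest tested members were Cox6b2 at 1.44, Sco1 at 3.10 and Cox7a1 at 3.29 FPKM. The order differed by group. The highest mean was that of Cox7c in Ctrl, at 836 ± 283 FPKM (SD, n = 5) beside 769 ± 114 for Cox4i1, that of Cox4i1 in Alc, at 679 ± 95.8, and that of Atp5b in Alc UA, at 606 ± 62.9 beside 575 ± 86.0 for Cox4i1. These neighbours in the order lay within their spread. Complex II genes stood close together, between 137 and 144 FPKM over the 15 libraries. FPKM is a level per transcript length, but the libraries differed in a trend on that length, as described with the lengths. This limits comparing the levels of short and long transcripts, such as Cox7c at 540 nt and Atp5b at 1916 nt.

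Differences are given as log2 fold changes of FPKM + 1 with standard errors, from limma with all 3 groups in one model and Benjamini-Hochberg adjustment over the 10959 genes that passed the filter. A gene was called where the adjusted p was under 0.05. Each is given on 2 scales, the deposited FPKM and FPKM divided by median-of-ratios size factors, because the 2 scales moved the groups apart. Size factors ran from 0.934 to 1.285 in Ctrl, from 0.909 to 1.088 in Alc and from 0.844 to 0.997 in Alc UA. The median log2 change of all tested genes in Alc against Ctrl was -0.12 on the deposited scale and 0.02 on the median-of-ratios scale. With counts not available here the depth of the libraries is unknown. Ctrl 1 and Ctrl 4 stood apart from the other 3 control libraries for many short members, as described with the lengths.

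Markers of other cell types also moved with the diet. Of 12 sinusoidal endothelial markers 11 were lower in Alc than in Ctrl on both scales, and none was higher. Their summed level was 134 to 380 FPKM in Ctrl, 63.2 to 135 in Alc and 64.6 to 85.5 in Alc UA, with none at 0. All 5 tested erythroid markers were lower on both scales, with sums of 1432 to 8801, 576 to 988 and 346 to 1033 FPKM in the same order. The 3 tested T and NK cell markers and the 4 tested B and plasma cell markers were lower on both scales too, with sums over the lists of 5.57 to 47.3 and 7.74 to 23.7 FPKM in Ctrl and of 3.79 to 11.5 and 2.21 to 7.40 in Alc. Of 12 Kupffer cell markers none was called on the deposited scale and 1 was higher on the median-of-ratios scale, and of 9 stellate cell markers 1 was lower on the deposited scale alone. Of 4 tested cholangiocyte and 3 tested adipocyte markers 1 each was lower on both scales. Of 9 hepatocyte markers 1 was higher and 3 were lower on the deposited scale and 1 was higher and none was lower on the median-of-ratios scale. Their sums overlapped, at 35995 to 57441 FPKM in Ctrl and 44732 to 60554 in Alc. Hepatocyte transcripts were thus high in every library. In bulk tissue, fewer cells of a type and less RNA per cell cannot be told apart, and the part of cell composition in the results below was not tested.

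Calls in both directions were made among the 46 tested members in Alc against Ctrl, at shares near those of all tested genes. On the deposited scale 6 were higher and 13 were lower in Alc than in Ctrl, where 10.6% of all tested genes were higher and 22.8% were lower. On the median-of-ratios scale 10 were higher and 6 were lower, against 20.1% and 15.3% of all tested genes. The median log2 change of the members was -0.30 beside -0.12 for all genes on the deposited scale, and -0.13 beside 0.02 on the median-of-ratios scale. Those called higher on both scales were Sdha, Sdhd, Uqcrc1, Cox7a2l, Atp5a1 and Atp5b. Those called lower on both were Cycs, Cox7a1, Sco2, Atp5e, Atp5j and Atp5md. A further 7 were called lower on the deposited scale alone (Uqcrb, Uqcrq, Uqcr10, Cox7b, Cox7c, Atp5h and Atp5l), and 4 were called higher on the median-of-ratios scale alone (Sdhb, Uqcrc2, Atp5c1 and Sco1). The share of lower calls among the members thus went from 13 of 19 to 6 of 16 with the scaling. Calls over all tested genes moved the same way, from 2497 lower and 1157 higher to 1672 lower and 2206 higher. Without Ctrl 1 and Ctrl 4 together, 2 members remained lower on the deposited scale, Cycs and Sco2, 5 were higher, and the median of the members was -0.09. Leaving out single libraries gave 5 or 6 higher members and 4 to 18 lower ones on the deposited scale, with 5 lower without Ctrl 1 or Alc 5 and 4 without Ctrl 4 or Alc 1. On the median-of-ratios scale it gave 2 to 15 lower ones, with 2 without Ctrl 1, Ctrl 4 or Alc 1, 3 without Alc 5 and 15 without Ctrl 3. The shares of all tested genes without these libraries are not given here, so such shifts cannot be called particular to the members.

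**Figure D1:**
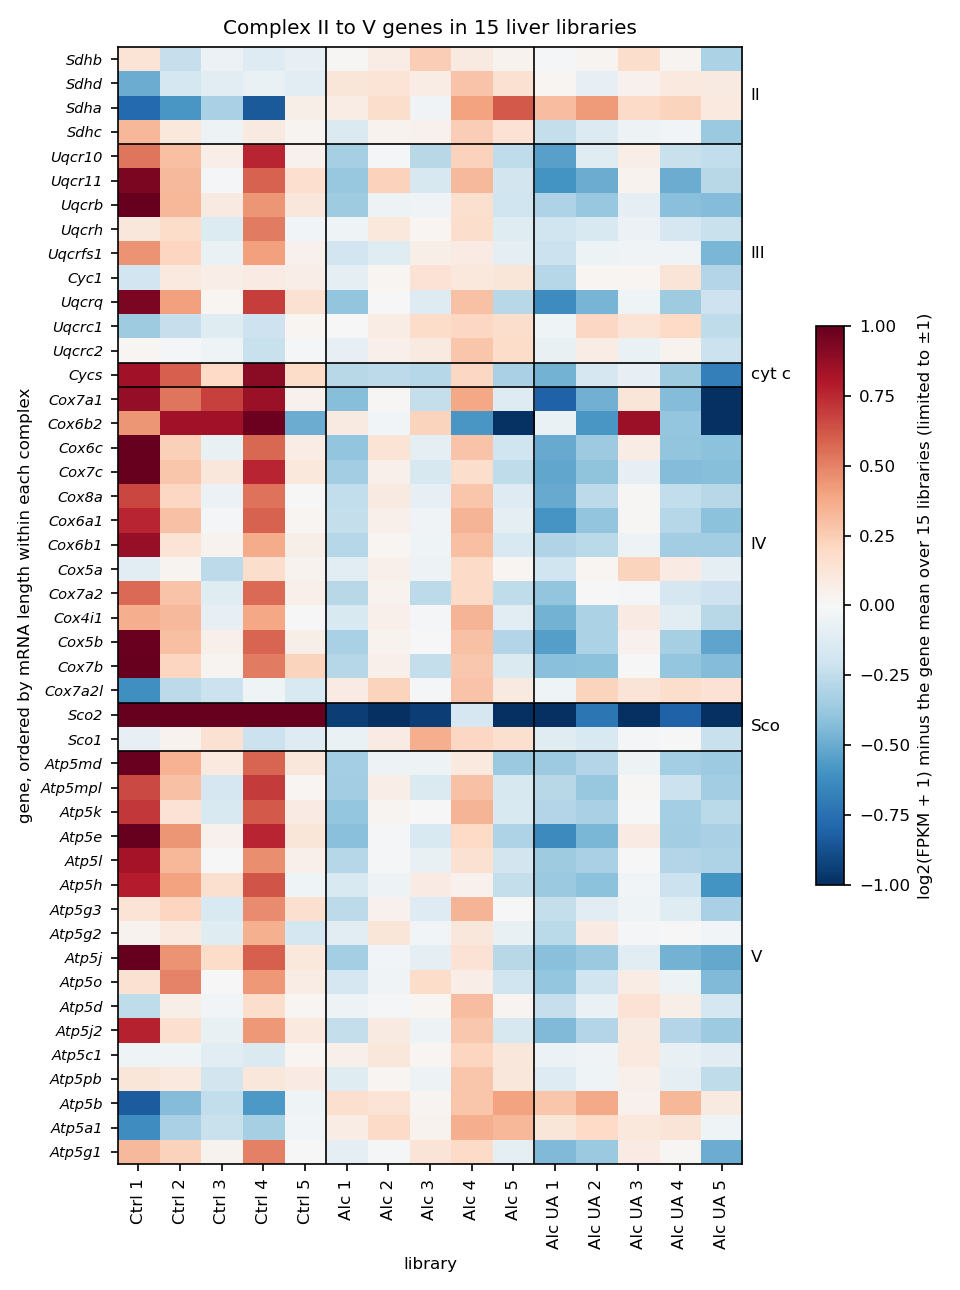
Heat map of the 46 tested members in the 15 libraries, as log2(FPKM + 1) minus the gene's mean over all libraries, limited to 1 in each direction, with genes ordered by mRNA length within each complex. Ctrl 1 and Ctrl 4 are high for most short genes of complexes III, IV and V, whereas Sdha, Atp5a1 and Atp5b are low in those libraries and high in most of the Alc and Alc UA libraries.

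**Figure D2:**
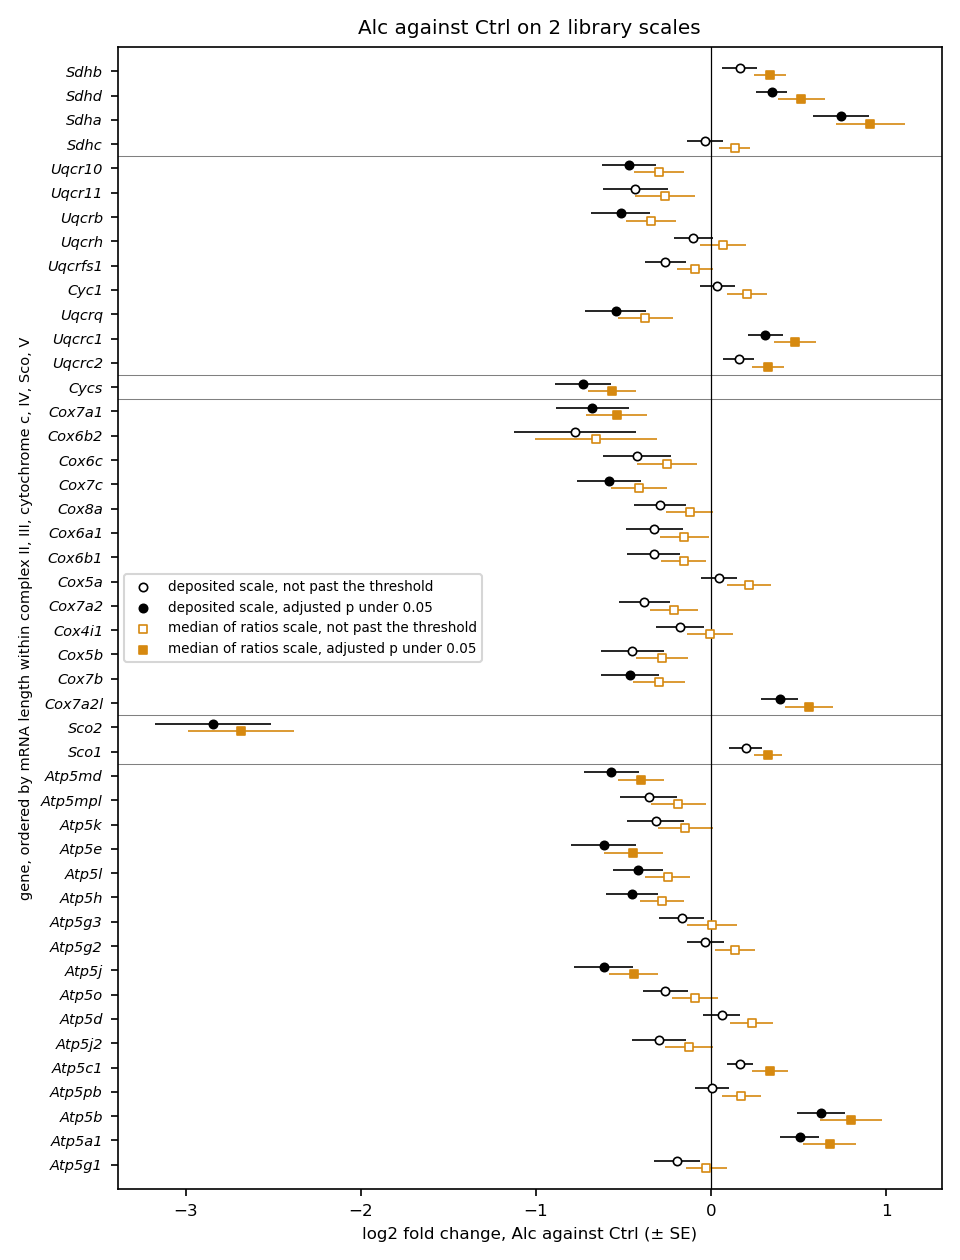
Log2 fold change in Alc against Ctrl with its standard error for each tested member, with circles for the deposited scale, squares for the median-of-ratios scale and filled symbols for an adjusted p under 0.05. Sco2 lies far below the others at -2.84, and Sdha is highest at 0.74 on the deposited scale.

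Complex II oxidises succinate to fumarate and passes the electrons to ubiquinone. In Alc, 2 of its 4 genes were higher on the deposited scale and 3 on the median-of-ratios scale, and none was lower on either. The counts for this and the other complexes stand beside the same shares of all tested genes. These were 10.6% higher and 22.8% lower on the deposited scale and 20.1% and 15.3% on the median-of-ratios scale. Sdha encodes the flavoprotein subunit that holds the succinate site. Sdha was measured at 80.0, 91.7, 109.8, 76.6 and 144 FPKM in Ctrl 1 to 5, at 146, 156, 135, 182 and 211 in Alc 1 to 5 and at 172, 185, 157, 161 and 148 in Alc UA 1 to 5. Its control and alcohol libraries overlapped only through Ctrl 5, which was above Alc 3, and every Alc UA library was above every control. The log2 change in Alc was 0.74 ± 0.16 on the deposited scale (limma, adjusted p = 0.0035) and 0.91 ± 0.19 on the median-of-ratios scale (adjusted p = 0.0027).

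The region upstream of Sdha is shown because it holds 3 matches to the binding motif of NRF1, a transcription factor of respiratory genes. The window is the 250 bases before the annotated start in RefSeq (chr13:74350241-74350490, minus strand, GRCm38.p6), printed 5′ to 3′ on the gene's strand, with the matches on either strand in capitals. The motif reads GCGC, any base, then TGCGC.
Sdha: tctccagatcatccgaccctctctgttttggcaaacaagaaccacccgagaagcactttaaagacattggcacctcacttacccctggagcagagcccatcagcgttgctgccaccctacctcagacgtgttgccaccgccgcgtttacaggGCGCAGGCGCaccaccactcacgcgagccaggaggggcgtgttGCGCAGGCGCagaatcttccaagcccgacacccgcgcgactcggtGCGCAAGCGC

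Sdhd, with Sdhc, anchors the enzyme in the membrane where ubiquinone binds. Sdhd was measured at 98.8, 124, 129.6, 134 and 130.0 FPKM in Ctrl 1 to 5, at 152, 154, 147, 171 and 156 in Alc 1 to 5 and at 141, 132, 144, 149.8 and 149 in Alc UA 1 to 5. Every Alc library was above every control, and Ctrl 1 was the lowest of all. Its log2 change was 0.34 ± 0.09 on the deposited scale (limma, adjusted p = 0.0096) and 0.51 ± 0.13 on the median-of-ratios scale (adjusted p = 0.0083). Sdhb carries the iron-sulfur clusters between the flavoprotein and the membrane part. Sdhb was measured at 149.7, 116, 130.5, 124 and 129 FPKM in Ctrl 1 to 5, at 137, 143, 162, 145 and 139 in Alc 1 to 5 and at 135, 139, 154, 139 and 109 in Alc UA 1 to 5. Ctrl 1 lay above all Alc libraries except Alc 3. The log2 difference of Sdhb, 0.16 ± 0.10 on the deposited scale (limma, adjusted p = 0.21) and 0.33 ± 0.09 on the median-of-ratios scale (adjusted p = 0.011), was called on the second scale alone.

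Sdhc was measured at 181, 154, 138, 152 and 146 FPKM in Ctrl 1 to 5, at 129, 147, 147, 170.2 and 158 in Alc 1 to 5 and at 121, 130.0, 138, 140.4 and 110.5 in Alc UA 1 to 5. The groups overlapped in this other anchor subunit on the deposited scale. On the median-of-ratios scale the highest Alc UA library, at 141.8, was just below the lowest Alc library, at 142.5. The mean of Sdhc was above that of Sdha in Ctrl and below it in Alc and Alc UA. Its log2 change in Alc against Ctrl was -0.04 ± 0.10 on the deposited scale (limma, adjusted p = 0.81) and 0.13 ± 0.09 on the median-of-ratios scale (adjusted p = 0.25), so the sign depended on the scale and no call was made there.

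Complex III takes electrons from ubiquinol and reduces cytochrome c. On the deposited scale 1 of its 9 genes was higher in Alc and 3 were lower, and on the median-of-ratios scale 2 were higher and none was lower. The higher ones encode the large core proteins that face the matrix. Uqcrc1 was measured at 84.4, 92.4, 99.6, 94.1 and 109.7 FPKM in Ctrl 1 to 5, at 109, 114, 123, 126 and 123 in Alc 1 to 5 and at 105, 125, 119, 125 and 90.9 in Alc UA 1 to 5. Alc 1 was the only alcohol library of Uqcrc1 below a control, Ctrl 5. Its log2 change was 0.31 ± 0.10 on the deposited scale (limma, adjusted p = 0.028) and 0.48 ± 0.12 on the median-of-ratios scale (adjusted p = 0.006). The deposited-scale call was lost on leaving out any of 6 libraries (Ctrl 1, Ctrl 2, Ctrl 4, Alc 3, Alc 4 or Alc 5), with adjusted p up to 0.069 in limma.

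Uqcrc2 was measured at 116, 113, 111, 97.6 and 113 FPKM in Ctrl 1 to 5, at 108, 118, 121, 138 and 130.0 in Alc 1 to 5 and at 108, 120.3, 109, 117 and 98.0 in Alc UA 1 to 5. Ctrl 4 was the lowest and Alc 4 the highest of these libraries, and the groups overlapped. The second core protein was at 0.16 ± 0.09 on the deposited scale (limma, adjusted p = 0.18) and 0.33 ± 0.09 on the median-of-ratios scale (adjusted p = 0.012), a call on the second scale alone.

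The lower genes of complex III encode small subunits with no redox centre. Uqcrb was measured at 607, 349, 294, 377 and 299 FPKM in Ctrl 1 to 5, at 217, 267, 270.5, 310.2 and 241 in Alc 1 to 5 and at 224, 213, 260.3, 207 and 205 in Alc UA 1 to 5. Ctrl 1 was far above every other library for Uqcrb, whose product lies near the ubiquinone sites. The change was -0.52 ± 0.17 on the deposited scale (limma, adjusted p = 0.028) and -0.35 ± 0.14 on the median-of-ratios scale (adjusted p = 0.071). Leaving out Ctrl 4, Alc 1 or Alc 5 in turn lost the deposited-scale call, with adjusted p up to 0.072 in limma.

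Uqcrq was measured at 282, 195, 148, 237 and 162 FPKM in Ctrl 1 to 5, at 111, 146, 134, 179 and 121 in Alc 1 to 5 and at 94.3, 106, 142, 114 and 127 in Alc UA 1 to 5. Ctrl 1 and Ctrl 4 were the highest, and Alc 4 was above Ctrl 3 and Ctrl 5. The log2 difference of Uqcrq, which encodes another small membrane subunit, was -0.55 ± 0.18 on the deposited scale (limma, adjusted p = 0.027) and -0.38 ± 0.16 on the median-of-ratios scale (adjusted p = 0.077), and leaving out Ctrl 1, Ctrl 4, Alc 1 or Alc 5 lost the deposited-scale call (limma, adjusted p up to 0.07). Uqcr11 was measured at 568, 369, 290.5, 444 and 332 FPKM in Ctrl 1 to 5, at 227, 347, 264, 369.9 and 259 in Alc 1 to 5 and at 195, 209, 302, 209 and 243 in Alc UA 1 to 5. Uqcr11, the smallest subunit, was again highest in Ctrl 1 and Ctrl 4. Its mean was the highest of the complex over the 15 libraries and in Ctrl, but below that of Uqcrh in Alc and in Alc UA. It was called on neither scale, at -0.43 ± 0.18 on the deposited scale (limma, adjusted p = 0.082) and -0.26 ± 0.17 on the median-of-ratios scale (adjusted p = 0.25).

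Uqcr10, another small subunit, was called on the deposited scale alone, at -0.47 ± 0.16 (limma, adjusted p = 0.031), and lost that call without Ctrl 1, Ctrl 2, Ctrl 4, Alc 1, Alc 3 or Alc 5. The catalytic subunits did not pass the test on either scale, with 0.03 for Cyc1, the cytochrome that hands electrons to cytochrome c, and -0.26 for the Rieske iron-sulfur protein Uqcrfs1 on the deposited scale. Uqcrh, the acidic subunit beside cytochrome c, was at -0.10 on that scale.

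Cycs encodes cytochrome c, the soluble carrier between complexes III and IV that also triggers apoptosis when it leaves the mitochondrion. Cycs was measured at 94.6, 79.7, 60.2, 98.8 and 59.6 FPKM in Ctrl 1 to 5, at 43.0, 43.5, 42.7, 60.7 and 41.6 in Alc 1 to 5 and at 37.4, 46.4, 49.4, 40.8 and 32.2 in Alc UA 1 to 5. The other 4 Alc libraries lay below every control, whereas Alc 4 was just above Ctrl 3 and Ctrl 5. The log2 change of Cycs was -0.73 ± 0.16 on the deposited scale (limma, adjusted p = 0.0038) and -0.56 ± 0.14 on the median-of-ratios scale (adjusted p = 0.0056), and the deposited-scale call held under each of the 29 alternatives tried. Processed copies of Cycs lie elsewhere in mammalian genomes, and how reads shared with such copies were counted is not known here.

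The region upstream of Cycs is shown because it holds the cyclic AMP response element TGACGTCA, which reads the same on both strands and is in capitals (chr6:50566570-50566819, minus strand, RefSeq, GRCm38.p6, 250 bases).
Cycs: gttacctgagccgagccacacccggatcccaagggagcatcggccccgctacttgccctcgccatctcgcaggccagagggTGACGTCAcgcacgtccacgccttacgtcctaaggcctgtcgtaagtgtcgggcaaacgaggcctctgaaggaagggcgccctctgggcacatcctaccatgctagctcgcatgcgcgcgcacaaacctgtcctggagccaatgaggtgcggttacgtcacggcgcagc

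Complex IV, cytochrome c oxidase, reduces oxygen to water. Of its 13 tested genes, 1 was higher and 3 were lower in Alc on the deposited scale, and 1 was higher and 1 was lower on the median-of-ratios scale. Cox7a2l, the higher one, encodes a relative of Cox7a2 that joins complex III to complex IV in supercomplexes. Cox7a2l was measured at 63.4, 80.7, 83.5, 94.3 and 87.2 FPKM in Ctrl 1 to 5, at 103, 114, 95.9, 119 and 103 in Alc 1 to 5 and at 94.3, 114, 106, 110.1 and 108 in Alc UA 1 to 5. Every Alc library was above every control, by a narrow margin between Alc 3 and Ctrl 4. Cox7a2l rose by 0.39 ± 0.10 on the deposited scale (limma, adjusted p = 0.011) and 0.56 ± 0.14 on the median-of-ratios scale (adjusted p = 0.0066).

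Cox7a1 is the isoform of heart and skeletal muscle and was near the lower end of the tested range. Cox7a1 was measured at 6.31, 4.76, 5.41, 6.24 and 3.11 FPKM in Ctrl 1 to 5, at 1.97, 3.02, 2.38, 4.20 and 2.64 in Alc 1 to 5 and at 1.27, 1.85, 3.34, 1.95 and 0.970 in Alc UA 1 to 5. The other 4 alcohol libraries were below every control, but Alc 4 was above Ctrl 5. Its change was -0.68 ± 0.21 on the deposited scale (limma, adjusted p = 0.022) and -0.54 ± 0.17 on the median-of-ratios scale (adjusted p = 0.025), and leaving out Ctrl 1, Ctrl 4 or Alc 1 lost the deposited-scale call (limma, adjusted p up to 0.059). The summed level of 12 striated muscle markers was 1.78 to 2.55 FPKM in Ctrl, 0.84 to 2.12 in Alc and 0.79 to 2.17 in Alc UA, with Myh1 at 0 throughout Ctrl, Acta1 and Ckm at 0 throughout Alc and Myh4 at 0 throughout Alc UA. The single tested marker of that list, Mylpf, was lower in Alc on the deposited scale (-0.40 ± 0.15, adjusted p = 0.047, limma). The part of muscle RNA in the Cox7a1 difference was not tested.

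Cox7c was measured at 1269, 696, 622, 975 and 619 FPKM in Ctrl 1 to 5, at 452, 597, 515, 651 and 484 in Alc 1 to 5 and at 401, 434, 543, 427 and 429 in Alc UA 1 to 5. Cox7c, a small membrane subunit, was highest in Ctrl 1 and Ctrl 4, and Alc 4 was above Ctrl 3 and Ctrl 5. Its change was -0.58 ± 0.18 on the deposited scale (limma, adjusted p = 0.024) and -0.41 ± 0.16 on the median-of-ratios scale (adjusted p = 0.058). The deposited-scale call was lost without Ctrl 1, Ctrl 4, Alc 1 or Alc 5 (limma, adjusted p up to 0.063). Cox7b was measured at 341, 197, 174, 244 and 199 FPKM in Ctrl 1 to 5, at 139.8, 176, 144, 205 and 154 in Alc 1 to 5 and at 127, 128, 171, 129.6 and 126 in Alc UA 1 to 5. Cox7b, which encodes another small subunit, had the same pair of high controls, and its change was -0.47 ± 0.17 on the deposited scale (limma, adjusted p = 0.041) and -0.30 ± 0.15 on the median-of-ratios scale (adjusted p = 0.13). Here the deposited-scale call was lost on leaving out any of 6 libraries (Ctrl 1, Ctrl 4, Alc 1, Alc 2, Alc 3 or Alc 5), with adjusted p up to 0.097 in limma.

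Cox4i1 was measured at 856, 832, 629, 867 and 663 FPKM in Ctrl 1 to 5, at 596, 687, 657, 839 and 618 in Alc 1 to 5 and at 477, 532, 702, 614 and 549 in Alc UA 1 to 5. Cox4i1, the largest nuclear-encoded subunit, had the highest mean of the members over the 15 libraries. It overlapped between the groups and was called on neither scale, at -0.18 ± 0.14 on the deposited scale (limma, adjusted p = 0.33) and -0.01 ± 0.13 on the median-of-ratios scale (adjusted p = 0.97). Of the others, Cox7a2 was at -0.38 ± 0.14 (limma, adjusted p = 0.052) and Cox5a, which neighbours Cox4i1 on the matrix side, at 0.04 ± 0.10 (adjusted p = 0.76) on the deposited scale. Cox5b, Cox6a1, Cox6b1, Cox6b2, Cox6c and Cox8a were between -0.78 and -0.29 on that scale and passed on neither.

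Sco2 and Sco1 deliver copper to the mitochondrially encoded subunit of complex IV that first receives electrons. Sco2 was measured at 52.6, 19.5, 21.1, 61.6 and 14.7 FPKM in Ctrl 1 to 5, at 3.03, 2.22, 3.04, 5.88 and 2.49 in Alc 1 to 5 and at 2.42, 3.69, 2.24, 3.41 and 2.12 in Alc UA 1 to 5. The lowest control was above the highest alcohol library, and Ctrl 1 and Ctrl 4 were far above the other controls. The log2 change of Sco2 was -2.84 ± 0.33 on the deposited scale (limma, adjusted p = 5.2e-05) and -2.69 ± 0.30 on the median-of-ratios scale (adjusted p = 3.6e-05). It was the largest of the 46 members on both scales, and the deposited-scale call held under each of the 29 alternatives. Without Ctrl 1 and Ctrl 4 the control libraries were at 14.7 to 21.1 FPKM, still above every Alc library. Sco1 was measured at 2.85, 3.18, 3.53, 2.52 and 2.73 FPKM in Ctrl 1 to 5, at 2.90, 3.31, 4.24, 3.71 and 3.56 in Alc 1 to 5 and at 2.74, 2.66, 3.05, 3.10 and 2.49 in Alc UA 1 to 5. Sco1 was nearly level between the groups on the deposited scale and overlapped there, and its change was 0.20 ± 0.10 on the deposited scale (limma, adjusted p = 0.12) and 0.32 ± 0.08 on the median-of-ratios scale (adjusted p = 0.0066).

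Sco2 shares its locus with Tymp, the gene of thymidine phosphorylase, which lies on the same strand of chromosome 15 in GENCODE M21 (GRCm38). Of the 1145 exon bases of the 3-exon Sco2 transcript, 851 (74.3%) lie inside Tymp exons, as do 856 of 1250 (68.5%) in the 2-exon transcript. How the authors' counting divided such reads is not given, so the separate levels of the overlapping genes are uncertain. Tymp was at 67.2 ± 10.9 FPKM (SD, n = 5) in Ctrl and 39.8 ± 5.54 in Alc, a log2 change on the deposited scale of -0.74 ± 0.14, adjusted p = 0.0014 in limma, and of -0.57 ± 0.17, adjusted p = 0.016 on the median-of-ratios scale. The ratio of Sco2 to Tymp FPKM was 0.2 to 0.966 in Ctrl, 0.0547 to 0.193 in Alc and 0.0588 to 0.123 in Alc UA, so it was lower in every Alc than in every Ctrl library. Ncaph2, a condensin subunit gene, lies on the opposite strand, and its last exon (89371311 to 89372826) covers the last exon of Sco2 (89371637 to 89372465). That stretch holds all bases of the 3-exon Sco2 transcript that lie outside Tymp exons. Whether the counting used strand is not given, so reads there may be shared with Ncaph2 too. Ncaph2 was at -0.05 ± 0.08, adjusted p = 0.67 in limma on the deposited scale. Of the genes nearby, Odf3b was at -0.32 ± 0.21, adjusted p = 0.25 and Lmf2 at -0.30 ± 0.10, adjusted p = 0.036 on the deposited scale. Lmf2 passed only on that scale. Klhdc7b was not tested, at 0.776 ± 0.291 FPKM (SD, n = 5) in Ctrl and 0.296 ± 0.0891 in Alc.

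The 250 bases before the Sco2 start (chr15:89373892-89374141, minus strand, RefSeq, GRCm38.p6) are shown for this overlap, with the 210 bases that lie inside exon 8 of Tymp in capitals.
Sco2: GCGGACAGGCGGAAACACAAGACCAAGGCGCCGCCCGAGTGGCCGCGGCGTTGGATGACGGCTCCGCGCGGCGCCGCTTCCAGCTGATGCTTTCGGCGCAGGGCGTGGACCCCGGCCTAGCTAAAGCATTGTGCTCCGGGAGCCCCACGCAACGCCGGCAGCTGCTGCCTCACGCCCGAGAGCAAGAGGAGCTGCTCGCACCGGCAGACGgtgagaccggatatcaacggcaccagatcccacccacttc

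**Figure D3:**
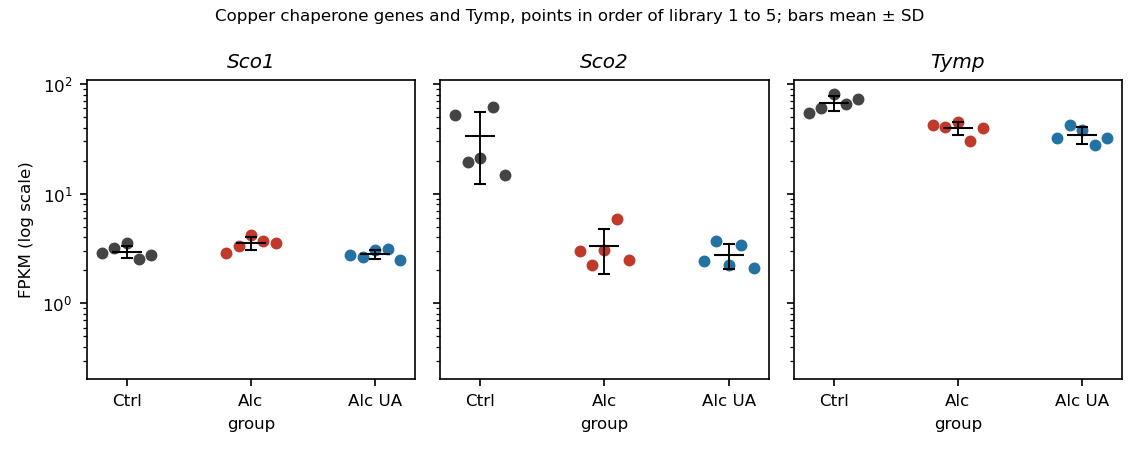
FPKM on a log axis of Sco1, Sco2 and the overlapping gene Tymp in the libraries numbered 1 to 5 of each group, with means and SDs. Sco2 is at 14.7 to 61.7 in Ctrl and at 2.22 to 5.88 in Alc, Tymp is lower by a smaller factor, and Sco1 stays between 2.49 and 4.24 in all 15 libraries.

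Sco2 is known in human cells as a target of the tumour suppressor p53, and other p53 targets were read beside it. Of 17 tested targets none was higher and 7 were lower in Alc on the deposited scale, and 1 was higher and 6 were lower on the median-of-ratios scale. Of all tested genes 22.8% were lower on the first scale, and 20.1% were higher and 15.3% were lower on the second. Cdkn1a, the cell cycle inhibitor p21, was at 26.3 ± 8.47 FPKM in Ctrl and 3.97 ± 3.88 in Alc (SD, n = 5), a change of -2.68 ± 0.46, adjusted p = 0.00083 in limma. Plk2 was at -0.95 ± 0.19, adjusted p = 0.0021 and the pro-apoptotic genes Bax and Bbc3 were at -0.82 ± 0.22, adjusted p = 0.012 and -0.71 ± 0.21, adjusted p = 0.016. The death receptor genes Fas and Tnfrsf10b were at -0.54 ± 0.12, adjusted p = 0.0042 and -0.32 ± 0.11, adjusted p = 0.037, and Tigar was at -0.32 ± 0.11, adjusted p = 0.037. Mdm2, the ubiquitin ligase of p53, was at -0.09 ± 0.17, adjusted p = 0.71, and Gdf15 at 0.67 ± 0.71, adjusted p = 0.48, neither past the threshold. Ccng1 was the higher one on the median-of-ratios scale, at 0.46 ± 0.08, adjusted p = 0.001.

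Complex V couples a membrane ring to a catalytic head. Of its 17 genes 2 were higher and 5 were lower in Alc on the deposited scale, and 3 were higher and 3 were lower on the median-of-ratios scale. The higher ones on both scales encode the alpha and beta subunits that form the catalytic head. Atp5b was measured at 290.1, 383, 435, 348 and 501 FPKM in Ctrl 1 to 5, at 577, 568, 526, 627 and 684 in Alc 1 to 5 and at 626, 674, 532, 652 and 549 in Alc UA 1 to 5. Every alcohol library was above every control for Atp5b, and Ctrl 1 was the lowest. It rose by 0.63 ± 0.14 on the deposited scale (limma, adjusted p = 0.0036) and 0.80 ± 0.18 on the median-of-ratios scale (adjusted p = 0.0035). Atp5a1 was measured at 225, 276, 296, 275 and 340.3 FPKM in Ctrl 1 to 5, at 365, 396, 355, 446 and 437 in Alc 1 to 5 and at 377, 398, 373, 379 and 337 in Alc UA 1 to 5. The groups of Atp5a1 were likewise apart on the deposited scale, with Ctrl 1 the lowest, and the change was 0.51 ± 0.11 on the deposited scale (limma, adjusted p = 0.0036) and 0.68 ± 0.15 on the median-of-ratios scale (adjusted p = 0.0032). Atp5c1, the central shaft of the head, was at 0.17 ± 0.08 on the deposited scale (limma, adjusted p = 0.1) and 0.34 ± 0.10 on the median-of-ratios scale (adjusted p = 0.021).

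The lower genes encode small subunits of the head, the stalk and the membrane part. Atp5j was measured at 835, 511, 425, 567 and 403 FPKM in Ctrl 1 to 5, at 297, 367, 351, 416 and 309.7 in Alc 1 to 5 and at 280.2, 289, 347, 271 and 264 in Alc UA 1 to 5. Alc 4 was above Ctrl 5, and the other alcohol libraries were below every control. The log2 change of Atp5j, which encodes a coupling factor of the peripheral stalk, was -0.61 ± 0.17 on the deposited scale (limma, adjusted p = 0.013) and -0.44 ± 0.14 on the median-of-ratios scale (adjusted p = 0.024). Atp5md was measured at 497, 317, 268, 374 and 270.3 FPKM in Ctrl 1 to 5, at 197, 241, 241, 267 and 193 in Alc 1 to 5 and at 194, 204, 241, 197 and 194 in Alc UA 1 to 5. Every alcohol library was below every control, with the gap between Alc 4 and Ctrl 3 narrow. Atp5md, a small membrane subunit linked to the dimer of the enzyme, had a log2 change of -0.57 ± 0.16 on the deposited scale (limma, adjusted p = 0.012) and -0.40 ± 0.13 on the median-of-ratios scale (adjusted p = 0.028). Both calls were lost on the deposited scale when Ctrl 1 and Ctrl 4 were left out together. Atp5e, the epsilon subunit of the shaft, was at -0.61 ± 0.19 on the deposited scale (limma, adjusted p = 0.021) and -0.44 ± 0.17 on the median-of-ratios scale (adjusted p = 0.048), a deposited-scale call lost without Ctrl 1, Ctrl 4, Alc 1 or Alc 5.

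Atp5g3 was measured at 672, 709.8, 552, 848 and 686 FPKM in Ctrl 1 to 5, at 512, 630.1, 560.2, 774 and 614 in Alc 1 to 5 and at 519.7, 569, 595, 562 and 488 in Alc UA 1 to 5. This isoform of the c subunit of the membrane ring had the highest mean of complex V over the 15 libraries, though Atp5b was above it in Alc UA, and its groups overlapped. Its change was -0.17 ± 0.13 on the deposited scale (limma, adjusted p = 0.33) and 0.00 ± 0.14 on the median-of-ratios scale (adjusted p = 0.99). The other isoforms, Atp5g1 and Atp5g2, were at -0.20 and -0.03 on the deposited scale, and none of the isoforms was called. Atp5h of the peripheral stalk and Atp5l of the membrane part were called lower on the deposited scale alone, at -0.45 ± 0.15 (limma, adjusted p = 0.031) and -0.42 ± 0.15 (adjusted p = 0.037). Both calls were lost without Ctrl 1, Ctrl 2, Ctrl 4, Alc 1, Alc 2 or Alc 5, and that of Atp5l also without Alc 3. The 6 other members of the complex (Atp5pb, Atp5o, Atp5d, Atp5j2, Atp5k and Atp5mpl) passed on neither scale, and were between -0.36 and 0.06 on the deposited scale.

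Over the whole set, 4 members were higher in every Alc than in every Ctrl library on the deposited scale (Sdhd, Cox7a2l, Atp5a1 and Atp5b) and 2 were lower in every one (Sco2 and Atp5md), where 6.18% and 9.61% of all tested genes were. On the median-of-ratios scale these were 3 (Sdhd, Cox7a2l and Sco1) and 1 (Sco2), against 11.0% and 7.42%. The sign of the change was the same on 4 scalings (deposited, median of ratios, quantile and equal sums) for 42 of the 46 members, and 11 were called on all 4. The shares of all tested genes on the 4 scalings together are not given here, so these counts cannot be called particular to the members.

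Motifs were searched on both strands of the 250 bases upstream of the 38 members that a RefSeq promoter matched by symbol. The NRF1 motif (GCGC, any base, then TGCGC) was in 6 of them (15.8%: Sdha, Sdhd, Cox6a1, Atp5g2, Atp5h and Atp5k), in 8.74% of the promoters of tested genes and in 3.86% of all promoters. The cyclic AMP response element TGACGTCA was in 2 members (5.26%: Cycs and Uqcrfs1), in 2.66% of tested genes and in 1.62% of all. The ETS motif CCGGAAG, which GABP binds, was in 9 members (23.7%), in 14.3% of tested genes and in 7.05% of all. The E-box CACGTG was in 4 members (10.5%), in 8.56% and in 6.05%. The letters AAGATGG of the YY1 motif were in none of the 38 windows, in 4.37% of tested genes and in 4.53% of all promoters. Of the members called higher on either scale with a promoter, 2 of 8 held the NRF1 motif, and of those called lower 1 of 11 did. These matches are descriptions of the letters, and the motifs were picked with the expression values known.

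The direction of the members went with the length of their transcripts. The mRNA of the 49 members ranged from 360 to 3171 nt, and 27 tested members were under 1000 nt. Across the 46 tested members the Spearman correlation of the deposited-scale log2 change in Alc against Ctrl with mRNA length was 0.565, and with coding length 0.713. Across all 10783 tested genes with a length the values were 0.232 and 0.189. Genes share the libraries of one comparison, so these are descriptions with no test.

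Members under 600 nt had a median log2 change of -0.43 (15 genes, 7 lower and none higher), and the 133 other genes of that length one of -0.50. Of all tested genes of that length 49.3% were lower and 1.35% higher. Members of 600 to under 1000 nt had -0.28 (12 genes, 2 lower), beside -0.35 for 596 other genes, with 40.3% of all genes there lower. From 1000 to under 2000 nt the members were at 0.16 (13 genes, 4 higher and 3 lower) where 2573 other genes were at -0.18 and 8.35% of all genes were higher and 28.5% lower. From 2000 to under 4000 nt they were at 0.08 (6 genes, 2 higher and 1 lower), beside -0.12 for 4492 other genes, with 11.6% of all genes higher and 22.6% lower. Below 1000 nt the median of the members was thus close to that of other genes of their length, and above it their median was higher. The calls were less close, as a smaller part of the members of 600 to under 1000 nt was lower, 2 of 12 beside 40.3%.

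The same pattern was seen in single libraries. Members under 1000 nt were, in the median, 0.765 above their 15-library mean on the log2 scale in Ctrl 1 and 0.573 above it in Ctrl 4, the highest of all libraries. The 5 Ctrl libraries ranged from -0.0177 to 0.765, the Alc libraries from -0.287 to 0.227 and the Alc UA libraries from -0.389 to 0.0116. The 729 other genes under 1000 nt ranged from -0.0302 to 0.615 in Ctrl, from -0.258 to 0.116 in Alc and from -0.362 to 0.000204 in Alc UA. Members of 1000 nt or more stayed between -0.0583 and 0.0355 in Ctrl and between -0.0817 and 0.248 in Alc. A trend on transcript length therefore ran through whole libraries and differed between the groups. RNA integrity and fragment sizes were not given, and their part in it was not tested.

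With the length trend taken out of each library, an alternative chosen after the data were seen, 14 members were higher and 3 were lower in Alc, where 19.0% and 17.6% of all tested genes were. Their median then was 0.07. Sdha, Sdhd, Cycs, Cox7a2l, Sco2, Atp5a1, Atp5b, Uqcrc1 and Atp5j kept their calls. Uqcrb, Uqcrq, Uqcr10, Cox7a1, Cox7b, Cox7c, Atp5e, Atp5h, Atp5l and Atp5md lost theirs. Sdhb, Uqcrc2, Uqcrh, Cox5a, Sco1, Atp5c1, Atp5d and Atp5g2, not called on the deposited scale, were called higher. A length pattern remained among the members, with a Spearman correlation of 0.529 with coding length and 0.27 with mRNA length. For all tested genes these were 0.00784 and -0.00839.

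**Figure D4:**
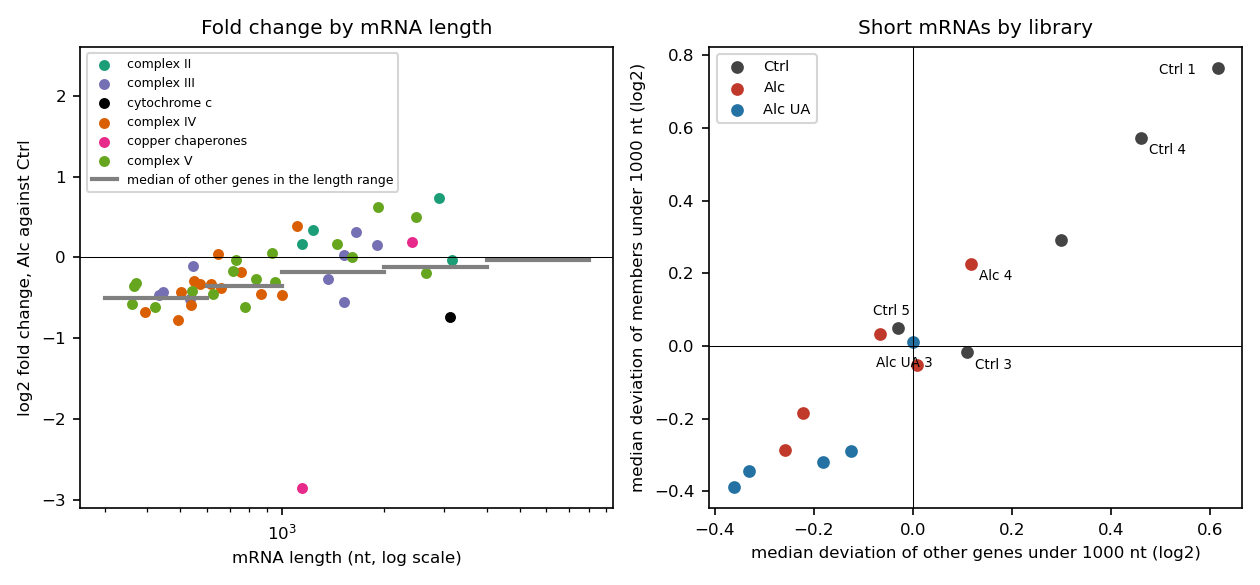
Left, log2 fold change in Alc against Ctrl on the deposited scale against mRNA length in nt on a log axis for each member, with grey bars for the median of the other genes in each length range. Right, median deviation of members under 1000 nt from their 15-library mean in each library beside that of other genes under 1000 nt. Short members lie near the grey bars, most members of 1000 nt or more lie above them, and Ctrl 1 and Ctrl 4 are the highest libraries on the right.

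Ratios of 2 members within a library cancel a scale factor common to both. They were taken of FPKM + 1, and this pseudocount makes ratios of low genes such as Sco1, Cox7a1 and Cox6b2 smaller and leaves them a slight dependence on scale. Of 12 pairs fixed for this purpose, 9 had both genes tested, which gave 27 tests over the 3 comparisons, and the possible assignments of 5 against 5 libraries allow a two-sided p no smaller than 0.0079. The log2 ratio of Sco2 to Sco1 was 3.80, 2.29, 2.29, 4.15 and 2.08 in Ctrl 1 to 5 and -0.42 to 0.55 in Alc. The difference of Alc minus Ctrl was -3.04 (exact permutation test, p = 0.0079, adjusted p = 0.036), and -3.41 with a pseudocount of 0.1. Cox7a2 to Cox7a2l, of which Cox7a2 has the shorter mRNA at 659 nt against 1102.5 nt, was 0.94 to 2.03 in Ctrl and 0.49 to 0.76 in Alc, a difference of -0.77 (p = 0.0079, adjusted p = 0.036, exact permutation test).

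Cyc1 to Cycs compares the donor and the carrier of the same electron, and here the longer mRNA was that of Cycs, at 3123 nt against 1520 nt. The ratio was 0.08 to 0.996 in Ctrl and 1.01 to 1.56 in Alc, higher in Alc by 0.77 (exact permutation test, p = 0.0079, adjusted p = 0.036). In these 3 ratios the Ctrl and Alc libraries did not overlap. With each library left out in turn they kept their direction, with adjusted p of 0.048 to 0.072 from exact permutation tests that had fewer libraries to assign. Sdha to Sdhb differed by 0.58 (p = 0.056, adjusted p = 0.12, exact permutation test) and Uqcrc1 to Uqcrc2 by 0.15 (p = 0.11, adjusted p = 0.21), neither past the threshold after adjustment. The isoform ratios Cox7a1 to Cox7a2, Cox6b2 to Cox6b1, Atp5g1 to Atp5g3 and Atp5g2 to Atp5g3 also missed it, with differences of -0.30, -0.45, -0.03 and 0.13. With the pseudocount of 0.1 the first of these was -0.46 and the second -1.05, still short of the threshold.

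The comparison of Alc UA with Alc asks whether UA changed these genes on the alcohol diet. None of the 46 members was called on either scale, in either direction. Of all tested genes 1 was, a higher one (0.00912%), and 0.0% were lower. At an unadjusted p under 0.05 there were 3 members on the deposited scale (Sdhc, Sco1 and, just under that bound, Cox7a1) and 2 on the median-of-ratios scale (Cox7a1 and Sco1), beside 6.06% and 6.91% of all tested genes. The smallest adjusted p of a member in limma was 0.79 on the deposited scale and 0.72 on the median-of-ratios scale. On the deposited scale 44 of 46 members were below 0, as were 7128 of all 10959 tested genes, with medians of -0.17 and -0.051. On the other scale 39 members and 5138 of all tested genes were, with medians of -0.10 and 0.0099. The Spearman correlation of this change with mRNA length was 0.262 for the members and 0.237 for all tested genes on the deposited scale.

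The 95% intervals of these differences give the precision of 5 libraries per group. Sdha was at 0.00 (interval -0.34 to 0.35) on the deposited log2 scale and Atp5b at 0.02 (-0.27 to 0.31). Those intervals stay below the log2 rises of the same genes in Alc against Ctrl. Sco2 was at -0.16 (-0.87 to 0.54), with both groups at similar low levels. Sco1 was at -0.25 (-0.45 to -0.05), Sdhc at -0.23 (-0.44 to -0.02) and Cox7a1 at -0.45 (-0.89 to -0.00034), before any adjustment for the number of genes. A difference that missed the threshold does not show that the levels were equal. None of the 9 ratios passed the threshold after adjustment in this comparison. The smallest p was that of Cox7a1 to Cox7a2, with a difference of -0.40 (exact permutation test, p = 0.048, adjusted p = 0.12).

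**Figure D5:**
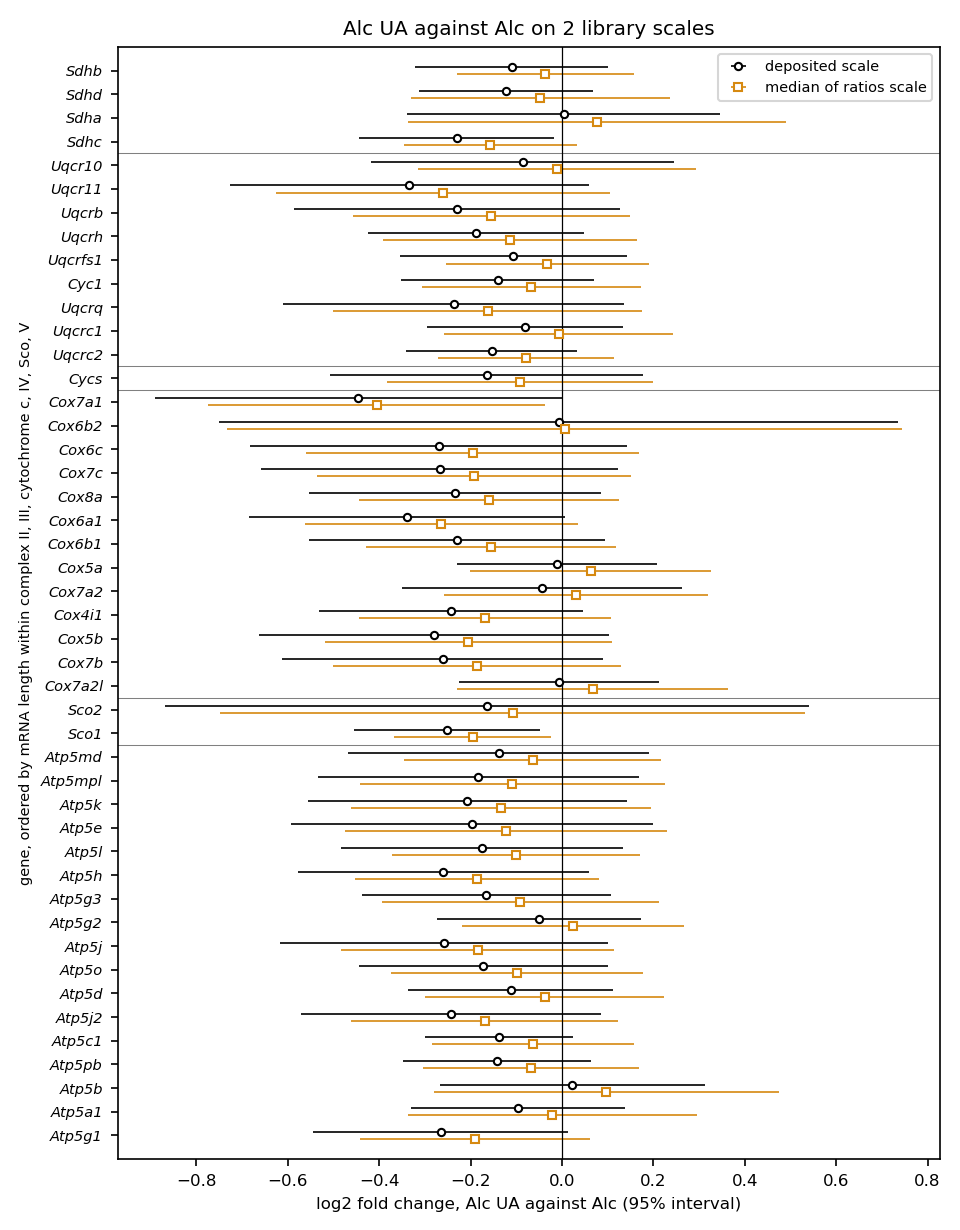
Log2 fold change in Alc UA against Alc with its 95% interval for the 46 tested members on the deposited and the median-of-ratios scale. The intervals of nearly all members hold 0, and most point estimates lie a little below it.

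Alc UA was also set against Ctrl, which shares its libraries with the comparisons above and is no independent evidence of either. On the deposited scale 4 members were higher (Sdha, Cox7a2l, Atp5a1 and Atp5b) and 30 were lower, where 10.5% and 32.1% of all tested genes were. Of members under 600 nt 14 of 15 were lower, and of those of 600 to under 1000 nt 9 of 12. Of all tested genes of those lengths 72.3% and 57.7% were lower. From 1000 to under 2000 nt 4 of 13 members were lower and from 2000 to under 4000 nt 3 of 6, beside 40.1% and 31.3%. On the median-of-ratios scale 9 were higher and 16 were lower, against 25.0% and 18.5%. The medians of the members were -0.49 and -0.25 on the 2 scales, and those of all genes -0.16 and 0.039, and 20 members were called on both. Without Ctrl 1 and Ctrl 4, 3 were higher and 14 were lower on the deposited scale, and without Ctrl 3 alone 25 were lower on the median-of-ratios scale. The counts on both scales and without these libraries have no share of all tested genes beside them. They cannot be called particular to the members.

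Sco2 was at -3.01 ± 0.33 (limma, adjusted p = 2.7e-05), Cycs at -0.90 ± 0.16 (adjusted p = 0.00074) and Cox7a1 at -1.12 ± 0.21 (adjusted p = 0.0009) on the deposited scale. Sdha and Atp5b were at 0.74 ± 0.16 (adjusted p = 0.0023) and 0.65 ± 0.14 (adjusted p = 0.0019). The ratios of Sco2 to Sco1, Cox7a2 to Cox7a2l and Cyc1 to Cycs differed by -2.95, -0.81 and 0.79, each with an exact permutation p of 0.0079 and an adjusted p of 0.036. Summed over the 49 genes, the members took 1.85 to 2.51% of all FPKM in Ctrl, 1.71 to 2.33% in Alc and 1.49 to 1.86% in Alc UA.

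The genes that build or accompany these complexes were counted in Alc against Ctrl in the same way. Their counts stand beside the same shares of all tested genes, 10.6% higher and 22.8% lower on the deposited scale and 20.1% and 15.3% on the median-of-ratios scale. Of 24 assembly and stability factors of complex IV, 3 were higher and 11 were lower on the deposited scale and 6 and 7 on the median-of-ratios scale. On the deposited log2 scale Higd1a, which binds complex IV, was at -0.66 ± 0.12, adjusted p = 0.0014 in limma, and Cox19, a copper-handling factor, at -0.76 ± 0.16, adjusted p = 0.0026. Taco1, which activates translation of a mitochondrially encoded subunit, was at 0.72 ± 0.15, adjusted p = 0.0024. Of 15 assembly factors of complexes II, III and V and cytochrome c, 1 was higher and 5 were lower on the deposited scale and 2 and 3 on the median-of-ratios scale. Sdhaf3 for complex II was at -0.64 ± 0.13, adjusted p = 0.002, and Uqcc1 and Uqcc3 for complex III were at 0.38 ± 0.08, adjusted p = 0.0038 and -0.67 ± 0.17, adjusted p = 0.0083.

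Of 36 nuclear subunits of complex I, the NADH dehydrogenase, 2 were higher and 17 were lower on the deposited scale and 5 and 5 on the median-of-ratios scale. The smallest p values were those of Ndufa5 at -0.66 ± 0.18, adjusted p = 0.011, Ndufs7 at -0.56 ± 0.15, adjusted p = 0.013 and Ndufa11 at -0.54 ± 0.15, adjusted p = 0.013 in limma on the deposited scale. Of 13 tricarboxylic acid cycle enzymes other than succinate dehydrogenase, 6 were higher and 1 was lower on the deposited scale and 8 and 1 on the other. The isocitrate dehydrogenase subunits Idh3b and Idh3a were at 0.40 ± 0.08, adjusted p = 0.0021 and -0.54 ± 0.12, adjusted p = 0.0041 in limma on the deposited scale. Of 12 regulators of respiratory gene transcription, 3 were higher and 3 were lower on the deposited scale and 3 and 2 on the other. The mitochondrial RNA polymerase Polrmt was at -0.36 ± 0.09, adjusted p = 0.01, and the GABP subunits Gabpa and Gabpb1 were at 0.28 ± 0.08, adjusted p = 0.015 and -0.45 ± 0.14, adjusted p = 0.021. None of the genes in these 5 lists was called in Alc UA against Alc on either scale.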

How the data were processed

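Liver total RNA of 15 mice, 5 in each group, was sequenced on an MGISEQ platform, per the labels' protocols. Expression came as FPKM, in 1 table that the authors deposited. The submitters' processing notes list RSEM 1.2.8, DESeq, StringTie, Bowtie2 2.2.5 and HISAT2 2.1.0, with no role for any of them. Genome build, annotation and use of strand were not given in the sources used here. FPKM are not counts, so depth is unknown and no count model was used.

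Values were analysed as log2(FPKM + 1) with limma 3.58.1 in R 4.3.3 (mean-variance trend, 3 groups, 12 residual degrees of freedom), for the 10959 genes that reached 1 FPKM in 5 or more of the 15 libraries. The same fit was run after division by median-of-ratios size factors. Ratios were compared with exact permutation tests in scipy 1.17.1. The fits were tested on simulated data. The 5 animals of a group are separate mice per the series' design text. Lengths came from GENCODE M21 transcripts (GRCm38) and promoters from RefSeq (GRCm38.p6), while the build behind the table is unknown.

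The members and all lists were chosen with earlier results of these data known. Full values were given for at most 4 called members of each complex, by smallest p, for Sco1 and Sco2, and for the member of highest mean in each complex. Up to 3 called genes of each other list were named, and any of the p53 targets and of the genes next to Sco2. A gene that this rule would name is not reported here. Alternatives were other pseudocounts (0.1 and 0.5), scalings, filters, library weights, 2 groups alone, a replicate block and leaving out each library. Removal of the length trend and leaving out pairs of Ctrl libraries were added after the data were seen.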

Additional observations from a re-analysis of the deposited data

Results flagged for a closer look

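In 7 of 66 group values of named members, 1 library stood apart from the other 4 of its group by more than Dixon's 95% criterion, which flags about 1 group in 20 by chance. In Ctrl, the library Ctrl 1 was the lowest for Sdhd at 98.8 FPKM and the highest for Uqcrb at 607 FPKM. In Alc, the library Alc 4 was the highest for Cycs at 60.7 FPKM and for Sco2 at 5.88 FPKM. In Alc UA, the library Alc UA 3 was the highest for Cox7c at 543 FPKM, for Cox7b at 171 FPKM and for Atp5md at 241 FPKM. No difference between effects of 2 groups was tested beyond the 3 comparisons.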

How the results depend on the processing

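Counts of lower members depended most on the choices made. Shares of all tested genes are not given beside the counts under these alternatives, so the shifts cannot be called particular to the members. In Alc against Ctrl, the 6 higher members became 10 with median-of-ratios scaling, 10 with equal library sums and 14 with the length trend removed. The 13 lower ones became 6, 5 and 3 under the same alternatives, 23 when libraries were weighted and 2 when Ctrl 1 and Ctrl 4 were left out. Leaving out each library gave 4 to 18 lower members, with 5 without Ctrl 1 or Alc 5 and 4 without Ctrl 4 or Alc 1. On the median-of-ratios scale the 6 lower members became 2 to 15, with 15 without Ctrl 3, 2 without Ctrl 1, Ctrl 4 or Alc 1 and 3 without Alc 5. The members' median of -0.30 became 0.072 with the length trend removed and -0.088 without Ctrl 1 and Ctrl 4.

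In Alc UA against Ctrl, the 4 higher members became 9 with median-of-ratios scaling and 13 with the length trend removed. The 30 lower ones became 16 and 9, and 14 without Ctrl 1 and Ctrl 4. On the median-of-ratios scale, 16 lower members became 12 to 25 on leaving out each library, with 25 without Ctrl 3. The median of -0.49 became -0.25 with median-of-ratios scaling, 0.035 with the length trend removed and -0.30 without Ctrl 1 and Ctrl 4. No member was called in Alc UA against Alc under any alternative.

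Changes near 0 turned sign in Alc against Ctrl. Sdhc became 0.13 with median-of-ratios scaling, 0.10 with equal library sums, 0.060 with the length trend removed, 0.017 without Ctrl 1 and Ctrl 5, 0.039 without Ctrl 1 and Ctrl 4 and -0.081 to 0.023 on leaving out each library. With the length trend removed Uqcr11 became 0.057, Cox4i1 0.18 and Atp5g3 0.20, and Atp5g3 was 0.0035 with median-of-ratios scaling. On leaving out each library, ratio differences in Alc UA against Alc ran from -0.0093 to 0.25 for Sco2 to Sco1, -0.072 to 0.00087 for Cox7a2 to Cox7a2l, -0.0034 to 0.42 for Cox6b2 to Cox6b1 and -0.064 to 0.074 for Cyc1 to Cycs, and in Alc against Ctrl from -0.087 to 0.012 for Atp5g1 to Atp5g3. The causes were not tested.

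Deviations of same-numbered libraries correlated at -0.302 to 0.244 in Alc against Ctrl. The range was -0.107 to 0.185 in Alc UA against Alc and -0.217 to 0.287 in Alc UA against Ctrl. Such values cannot show whether mice of the same number were matched, and the main fit used no pairing. With the replicate number as a block, 6 members were higher and 12 were lower in Alc against Ctrl, none was called in Alc UA against Alc, and 4 were higher and 30 were lower in Alc UA against Ctrl.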

Other observations

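Hspa1a, an inducible heat shock gene looked up after the values were seen, ordered the Ctrl libraries much as Sco2 did. It was at 41.5, 17.4, 16.8, 119.9 and 12.2 FPKM in Ctrl 1 to 5, at 1.29, 1.15, 1.48, 11.0 and 2.17 in Alc 1 to 5, and at 0.57, 1.19, 1.31, 1.29 and 3.10 in Alc UA 1 to 5. Ctrl 1 and Ctrl 4 were the highest controls for both genes, and Alc 4 the highest alcohol library for both.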
